A study of Homo sapiens with 6 samples.

Results

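The heat shock protein and DNAJ chaperones are the protein-coding genes whose symbols belong to the HSPA, HSPH1, HSP90, HSPD1, HSPE1, HSPB, DNAJA, DNAJB or DNAJC series. They numbered 72 of the 60617 genes counted, in 14 HSPA, 1 HSPH1, 3 HSP90, 2 HSPD1/HSPE1, 7 HSPB, 4 DNAJA, 12 DNAJB and 29 DNAJC genes. Of these, 60 passed the filter on low counts and were tested, among 18505 genes tested in all. RNA-seq was run on A549, a human lung cancer cell line, with a knockout of YTHDF1 (3 libraries, KO) and on wild-type A549 (3 libraries, WT). YTHDF1 is a cytoplasmic protein that binds N6-methyladenosine in mRNA. Both groups were grown in the same RPMI medium with fetal bovine serum, and the labels name no treatment. The labels call the 3 libraries of a group biological replicates. They do not say how the knockout was made or whether it is 1 clone or several, so the p-values measure the spread between these libraries, and a difference between clones cannot be told apart from the knockout. In bulk RNA, fewer cells with a transcript and less of it per cell cannot be told apart either.

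Chaperones bind unfolded or partly folded proteins. HSP70 proteins, encoded by HSPA genes, hold and release client peptides in a cycle driven by ATP. J-domain proteins, encoded by DNAJ genes, deliver clients to HSP70 and speed its ATP hydrolysis, and each tends to work in 1 compartment or on particular clients. HSP90 proteins act later on kinases and receptors, HSPD1 and HSPE1 form the folding chamber of the mitochondrial matrix, and HSPB proteins are small holdases that work without ATP.

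The libraries held between 32037107 and 40675628 counts in the KO group and between 27238817 and 40460782 in the WT group. YTHDF1 itself was at 48.6, 48.6 and 47.1 CPM in the KO libraries, against 98.0, 104 and 96.4 CPM in the WT libraries. CPM is the usual count relative to library size, here scaled by TMM factors. Of 9 marker genes fixed for A549, keratin and aldo-keto reductase genes among them, 8 were above 8 CPM in every library and EPCAM lay between 1.61 and 2.56 CPM. Their summed level lay between 11765 and 12337 CPM in KO libraries and between 12371 and 13189 CPM in WT libraries. Of 10 markers of leukocytes, endothelium, fibroblasts and hepatocytes, 8 stayed under 1 CPM in every library, CD3E was at 0 counts, and COL1A1 made up most of their summed 41.4 to 45.1 CPM in KO libraries and 29.1 to 34.5 CPM in WT libraries. Mitochondrially encoded mRNAs, a sign of RNA quality, took 3.72% to 3.98% of the counts in KO libraries and 5.76% to 5.92% in WT libraries, and their part in the results below was not tested.

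The heat shock protein genes were mostly lower in the KO libraries and the J-domain genes went both ways. Of 21 HSP genes tested, 15 fell and 1 rose, with a median log2 fold change (KO minus WT) of -0.29. Of 39 DNAJ genes tested, 10 fell and 12 rose, with a median of 0.0013. Over all genes tested the median was 0.0011. A gene is counted as changed where the p of the edgeR quasi-likelihood test, adjusted over all genes tested by the Benjamini-Hochberg method, is under 0.05. By that rule 53.5% of all genes tested changed, 27.2% higher and 26.3% lower in KO, and among protein-coding genes tested 62.4% changed, 31.4% higher and 31% lower. Of all 60 tested chaperone genes, 13 (21.7%) rose and 25 (41.7%) fell, and for 39 (65%) the 3 KO and 3 WT libraries did not overlap, where this held for 58.9% of all genes tested and for 66.7% of protein-coding genes tested.

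Most of these changes were small. The median size of the log2 change, in either direction, was 0.25 over the 60 genes, against 0.36 over all genes tested and 0.34 over protein-coding genes tested. Of the 38 chaperone genes that changed, 19 (50%) did so by less than 0.3 on the log2 scale, against 22.8% of all genes and 25.6% of protein-coding genes that changed. When the test itself asked for more than a 1.5-fold difference, 4 of the 60 passed, where 14% of all genes tested did. These 4 were DNAJC1 and DNAJA1, which rose, and HSPA14 and DNAJC10, which fell.

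**Figure D1:**
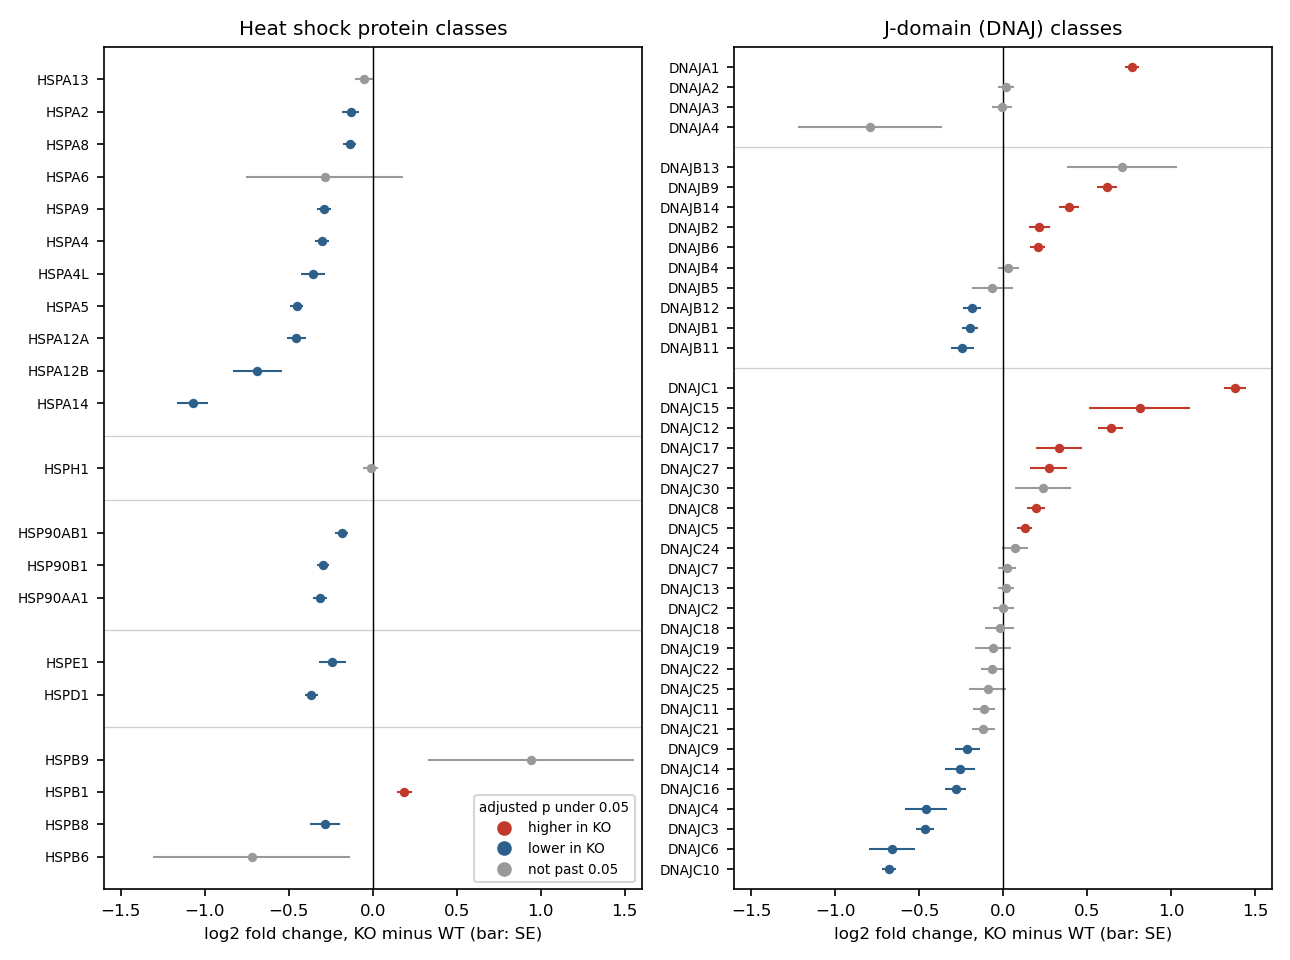
Log2 fold change (KO minus WT, x axis) with its standard error for the 60 chaperone genes tested, by class from top to bottom. All 11 HSPA points lie left of 0, while the DNAJ points run from -0.79 for DNAJA4, which did not pass the test, to 1.38 for DNAJC1.

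Among HSPA genes, 9 of 11 tested fell and none rose, with a median log2 fold change of -0.30. HSPA14, a distant HSP70 that binds ribosomes together with the J-domain protein DNAJC2, had the largest fall of the class. It was at 11.8, 10.2 and 12.9 CPM in the KO libraries, against 23.9, 24.2 and 25.1 CPM in the WT libraries, and fell by 1.07 on the log2 scale (SE 0.0924, adjusted p 8.15e-12 in edgeR). Every KO library was thus far below every WT library. Its count is uncertain because 17.4% of its exonic bases overlap MSANTD7 on the same strand. Of its neighbours on chromosome 10, the nearest tested protein-coding genes and picked with their values in view, FAM107B rose by 0.38 (SE 0.0435) and SUV39H2 fell by 0.23 (SE 0.0914). Its partner DNAJC2 was at 44.0, 41.8 and 43.2 CPM in KO libraries and 42.4, 42.8 and 43.7 CPM in WT libraries, groups that overlap, with a log2 fold change of 0.0013 (SE 0.0608).

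HSPA5, which encodes BiP, the HSP70 of the endoplasmic reticulum (ER), had 862, 822 and 778 CPM in the KO libraries, against 1137, 1127 and 1107 CPM in the WT libraries. It fell by 0.45 (SE 0.0397, adjusted p 1.2e-11 in edgeR), and the groups lay far apart. HSPA9, the HSP70 of the mitochondrial matrix, had 438, 405 and 391 CPM in KO libraries and 489, 510 and 511 CPM in WT libraries, and fell by 0.29 (SE 0.0428). The gene of the main cytosolic HSP70, HSPA8, had 1261, 1203 and 1220 CPM in KO libraries and 1312, 1397 and 1344 CPM in WT libraries. It fell by 0.14 (SE 0.0376, adjusted p 0.00235 in edgeR), a small change in which the groups nearly met but did not overlap. Of the 50-base stretches of HSPA8, 15.4% also occur in other genes, HSPA8P1 above all.

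The HSP110 genes encode large HSP70 relatives that release ADP from HSP70. HSPA4 was at 291, 279 and 284 CPM in KO libraries, against 344, 364 and 345 CPM in WT libraries, and fell by 0.30 (SE 0.0413). HSPA4L fell by 0.36 (SE 0.0735), with 24.5 ± 1.52 CPM in KO libraries and 31.5 ± 0.976 CPM in WT libraries (SD, n = 3 each). HSPH1, which is strongly induced by heat, was at 201, 187 and 197 CPM in KO libraries and 188, 202 and 200 CPM in WT libraries. These groups overlap, and the log2 fold change of -0.01 (SE 0.0445) did not pass the test.

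The HSP70 relatives of more distant sequence, HSPA12A and HSPA12B, also fell. The level of HSPA12A was 53.6, 52.3 and 57.9 CPM in KO libraries, against 72.8, 72.7 and 79.0 CPM in WT libraries, and fell by 0.46 (SE 0.0566). HSPA12B, at 4.73 CPM on average in KO libraries and 7.64 CPM in WT libraries, fell by 0.69 (SE 0.146). HSPA2, known for its role in male germ cells, was at 106, 102 and 91.0 CPM in KO libraries and 111, 108 and 109 CPM in WT libraries and fell by 0.13 (SE 0.0519, adjusted p 0.0317 in edgeR). That call was lost without KO replicate 3 (adjusted p 0.327), WT replicate 1 (0.0935) or WT replicate 3 (0.0687), and with scaling by library size only (0.0816). HSPA13, at 66.6 CPM on average in KO libraries and 69.1 CPM in WT libraries, did not pass the test (log2 fold change -0.05, SE 0.0537).

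The heat-inducible HSP70 genes had very few counts. HSPA6 was at 0.433, 0.588 and 0.541 CPM in KO libraries and 1.06, 0.445 and 0.400 CPM in WT libraries. HSPA1A had 4, 0 and 2 counts in KO libraries and 2, 1 and 0 in WT libraries, and HSPA1B had 0, 0 and 2 counts in KO libraries and 0, 2 and 2 in WT libraries. Both were too low to test, and no fold is given. These 2 genes are near-identical: 72.6% of the 50-base stretches of the longest HSPA1A transcript, and 73.5% of those of HSPA1B, occur in a transcript of another gene. The sources used here do not give how reads that fit several genes were counted, so these low counts do not show that the genes were silent. HSPA1L, their neighbour on chromosome 6, had 2 to 7 counts a library and was not tested either.

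All 3 HSP90 genes fell. HSP90AA1, the heat-inducible cytosolic form, was at 959, 898 and 928 CPM in KO libraries, against 1104, 1204 and 1152 CPM in WT libraries, and fell by 0.31 (SE 0.0396, adjusted p 3.48e-08 in edgeR). HSP90B1, the ER form also called GRP94, was at 831, 817 and 798 CPM in KO libraries and 994, 1018 and 991 CPM in WT libraries, and fell by 0.30 (SE 0.0373). The constitutive cytosolic form, HSP90AB1, was at 1293, 1241 and 1264 CPM in KO libraries and 1404, 1455 and 1461 CPM in WT libraries, and fell by 0.19 (SE 0.0366). No KO library reached the lowest WT library for any of the 3. Between 8.12% and 18.8% of the 50-base stretches of these transcripts are shared with other genes, mostly processed pseudogenes.

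The mitochondrial chaperonin genes HSPD1 and HSPE1 lie head to head on chromosome 2. HSPD1, which encodes HSP60, was at 608, 587 and 582 CPM in KO libraries, against 754, 787 and 751 CPM in WT libraries, and fell by 0.37 (SE 0.0388, adjusted p 9.02e-10 in edgeR). HSPE1, the gene of its lid HSP10, was at 18.7, 20.3 and 20.8 CPM in KO libraries and 22.6, 24.2 and 24.1 CPM in WT libraries, and fell by 0.24 (SE 0.0801, adjusted p 0.0111, or 0.0587 without KO replicate 1). Per kilobase of exon the HSPE1 level was only 0.0660 to 0.0767 of the HSPD1 level in KO libraries and 0.0644 to 0.0689 in WT libraries. HSPE1 shares 27.2% of its 50-base stretches with other genes, HSPE1-MOB4 above all, and HSPD1 shares 24.8%, the most with the pseudogene HSPD1P1, so both levels are uncertain.

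Of 7 small heat shock protein genes, 4 were tested. HSPB1, which encodes HSP27, was the HSP gene that rose. It was at 412 CPM in each of the 3 KO libraries, against 366, 381 and 338 CPM in the WT libraries, and rose by 0.19 (SE 0.0429, adjusted p 0.000357 in edgeR). It shares 11.4% of its 50-base stretches, the most with HSPB1P1. HSPB8, the partner of the co-chaperone BAG3 in selective autophagy, was at 16.2, 18.3 and 15.4 CPM in KO libraries and 20.4, 19.1 and 21.1 CPM in WT libraries, and fell by 0.28 (SE 0.0884, adjusted p 0.0073, or 0.0578 without KO replicate 3). HSPB6 and HSPB9 were under 1 CPM in every library and did not pass the test. HSPB7 had 2 to 10 counts a library, HSPB2 and HSPB3 had 0, and these 3 were not tested.

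**Figure D2:**
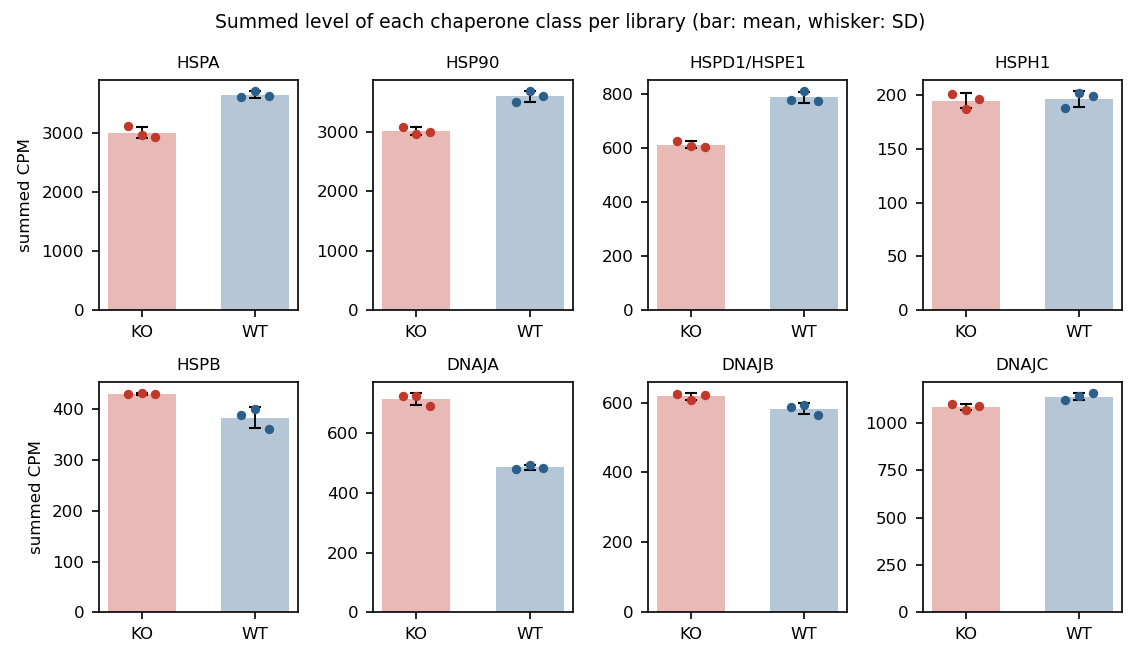
Summed CPM of each chaperone class (y axis, from 0) in each library, with the mean as a bar and the SD as a whisker, KO left and WT right. The HSPA, HSP90, HSPD1/HSPE1 and DNAJC sums are lower in every KO library than in every WT library. The HSPB, DNAJA and DNAJB sums are higher, and HSPH1 overlaps.

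Summed over genes, the HSPA class took 3007 ± 97.6 CPM in KO libraries and 3647 ± 57.4 CPM in WT libraries (SD, n = 3 each). The HSP90 class took 3010 ± 65.7 CPM in KO libraries and 3595 ± 88.7 CPM in WT libraries. The DNAJA class stood at 713 ± 19.7 CPM in KO libraries and 485 ± 7.26 CPM in WT libraries, and DNAJA1 was the gene of this class that rose. The DNAJB and DNAJC sums differed less, at 617 ± 9.40 and 1085 ± 15.7 CPM in KO libraries against 582 ± 15.1 and 1139 ± 17.6 CPM in WT libraries. Per kilobase of exon, the summed DNAJ level was 0.872, 0.895 and 0.899 of the summed HSPA level in the KO libraries, against 0.584, 0.580 and 0.583 in the WT libraries. The groups did not overlap, but 1 gene carried most of the difference in the DNAJ sum. That sum averaged 546 CPM per kilobase in KO libraries and 438 in WT libraries, a difference of 108, of which DNAJA1 made up 83.3 and DNAJC1 20.6. With DNAJA1 left out, a choice made after seeing the data, the ratio to HSPA was 0.553 to 0.571 in KO libraries and 0.419 to 0.428 in WT libraries, the HSPA sum in the denominator being lower in KO. The ratio therefore does not describe J-domain genes in general, whose median log2 fold change was 0.0013. These sums are descriptions with no test of their own.

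Within a class a few genes held most of the mRNA. Of the HSPA level per kilobase, HSPA8 held 40.8% to 42.0% in KO libraries and 36.3% to 37.7% in WT libraries, and HSPA5 held 33.3% to 34.6% in KO libraries and 37.7% to 39.1% in WT libraries. On this scale HSPA8 was ahead of HSPA5 in every KO library and behind it in every WT library, though the WT replicate 2 shares were almost equal. That order depends on the length used, which merges all annotated exons of a gene. In CPM, with no length, HSPA8 was above HSPA5 in every library. The WT values were 1312, 1397 and 1344 CPM for HSPA8 and 1137, 1127 and 1107 CPM for HSPA5. HSP90AB1 held 54.7% to 55.0% of the HSP90 level in KO libraries and 52.2% to 53.2% in WT libraries. HSPB1 held over 96% of the HSPB level in every library, and DNAJA1 held 87.0% to 87.8% of the DNAJA level in KO libraries and 80.1% to 81.2% in WT libraries.

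The heat shock element is the site bound by the heat shock factor HSF1, built from inverted units of the letters GAA. It was searched on both strands as 3 alternating units with 2 free bases between them (GAA, TTC, GAA or TTC, GAA, TTC, each order the reverse complement of the other), in windows of 250 bases before to 50 after each RefSeq gene start. Such windows were at hand for 65 of the 72 chaperone genes. The element was in 7 of them (10.8%), against 0.608% of 27305 genes with a window. The stretches that hold it are printed because their genes moved in opposite directions. All are GRCh38.p14, 5′ to 3′ on the strand of the gene, with the units of the element in capitals.
HSPA8, chr11:123062137-123062386, minus strand: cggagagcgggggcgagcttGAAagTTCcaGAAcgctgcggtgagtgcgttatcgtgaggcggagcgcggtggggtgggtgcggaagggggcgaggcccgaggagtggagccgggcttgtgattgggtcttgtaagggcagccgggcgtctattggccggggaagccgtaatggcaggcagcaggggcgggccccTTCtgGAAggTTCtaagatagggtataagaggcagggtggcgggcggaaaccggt
HSP90AB1, chr6:44247763-44247872, plus strand: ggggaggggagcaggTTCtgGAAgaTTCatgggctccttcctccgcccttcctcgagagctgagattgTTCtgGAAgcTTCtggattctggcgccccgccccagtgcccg
HSP90AA1, chr14:102087085-102087164, minus strand: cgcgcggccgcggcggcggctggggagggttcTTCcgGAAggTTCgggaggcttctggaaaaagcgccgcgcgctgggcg
HSPD1, chr2:197500011-197500090, minus strand: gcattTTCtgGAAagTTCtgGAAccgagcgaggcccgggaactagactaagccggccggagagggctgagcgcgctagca
HSPA6, chr1:161524440-161524509, plus strand: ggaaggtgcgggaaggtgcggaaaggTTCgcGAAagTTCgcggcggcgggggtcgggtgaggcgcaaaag
DNAJB6, chr7:157336844-157336923, plus strand: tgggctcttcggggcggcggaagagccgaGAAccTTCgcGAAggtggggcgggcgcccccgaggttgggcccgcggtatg
DNAJA1, chr9:33025269-33025296, plus strand: ccgggcgGAActTTCcaGAAcgctcggt

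Of these 7 genes, HSPA8, HSP90AB1, HSP90AA1 and HSPD1 fell, DNAJA1 and DNAJB6 rose, and HSPA6 did not pass the test. Among the starts that RefSeq lists for HSPD1 and HSP90AA1 (2 each) and HSP90AB1 (3), 1 window matched. In HSPA8 and HSP90AB1 the element occurs at 2 places each, and in HSPD1 2 matches overlap. With a single inverted pair of units in either order, which every 3-unit element also holds, the count was 22 of 65 chaperone genes and 16.2% of all genes with a window. A match describes letters in the window and shows no binding.

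HSPA5 and HSP90B1, both of which fell, are the chaperone genes whose windows hold the ER stress response element, the site known for ATF6 and NF-Y. Its letters are CCAAT and CCACG with 9 free bases between them, searched on both strands. It was in 0.0916% of all genes with a window. HSP90B1 holds it 2 times, the second on the reverse strand. The 250 bases before each start are printed with the element's fixed letters in capitals.
HSPA5, chr9:125241344-125241593, minus strand: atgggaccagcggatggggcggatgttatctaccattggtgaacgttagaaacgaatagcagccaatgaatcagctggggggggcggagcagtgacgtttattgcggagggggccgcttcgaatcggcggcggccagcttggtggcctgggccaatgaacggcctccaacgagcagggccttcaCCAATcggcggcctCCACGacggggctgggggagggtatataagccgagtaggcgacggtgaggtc
HSP90B1, chr12:103930160-103930409, plus strand: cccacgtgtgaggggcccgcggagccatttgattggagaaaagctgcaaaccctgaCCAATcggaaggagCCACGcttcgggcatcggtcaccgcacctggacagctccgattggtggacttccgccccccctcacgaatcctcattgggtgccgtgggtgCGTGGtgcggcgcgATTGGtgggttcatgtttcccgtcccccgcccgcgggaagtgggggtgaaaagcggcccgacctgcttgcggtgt

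DNAJA genes encode the J-domain proteins closest to bacterial DnaJ. DNAJA1, a cytosolic partner of HSPA8, was at 555, 565 and 536 CPM in the KO libraries, against 317, 335 and 322 CPM in the WT libraries. It rose by 0.77 on the log2 scale (SE 0.0406, adjusted p 3.08e-17 in edgeR), with every KO library far above every WT library. Per kilobase of exon its level was 0.781, 0.834 and 0.781 of that of HSPA8 in KO libraries, against 0.430, 0.426 and 0.426 in WT libraries. The size of these ratios rests on merged exon lengths of 2730 bases for DNAJA1 and 4849 for HSPA8. In CPM, with no length, DNAJA1 averaged 552 in KO libraries, where HSPA8 averaged 1228. DNAJA2, a relative of DNAJA1 that shares the same partner, was at 113, 108 and 104 CPM in KO libraries and 108, 107 and 107 CPM in WT libraries. The mitochondrial DNAJA3 was at 55.3, 51.7 and 49.3 CPM in KO libraries and 51.8, 50.5 and 54.4 CPM in WT libraries. Neither passed the test, with log2 fold changes of 0.01 (SE 0.0476) for DNAJA2 and -0.01 (SE 0.0597) for DNAJA3, and both groups overlap. DNAJA4, at 0.310 to 1.37 CPM, did not pass either (-0.79, SE 0.43), although it did without WT replicate 2 (adjusted p 0.0459 in edgeR).

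The nearest tested protein-coding gene to DNAJA1 on chromosome 9 is APTX, 43 bases away, picked with its values in view. APTX rose by 0.30 (SE 0.0691), with 38.3 CPM on average in KO libraries and 31.1 CPM in WT libraries. SMU1, on the other side, did not pass the test (0.01, SE 0.0511).

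Of 10 DNAJB genes tested, 4 rose and 3 fell. DNAJB9, an ER-lumen co-chaperone of BiP that is known to hold the stress sensor IRE1 in check, rose most. It was at 65.2, 58.2 and 62.1 CPM in KO libraries, against 40.9, 37.9 and 41.8 CPM in WT libraries, and rose by 0.62 (SE 0.0612, adjusted p 1.97e-10 in edgeR). DNAJB14, an ER-membrane protein whose J domain faces the cytosol, was at 60.4, 59.1 and 66.2 CPM in KO libraries and 47.2, 48.9 and 45.8 CPM in WT libraries, and rose by 0.39 (SE 0.0591). Its close relative in the same membrane, DNAJB12, was at 91.3, 85.0 and 78.8 CPM in KO libraries and 99.1, 96.5 and 94.2 CPM in WT libraries. DNAJB12 fell by 0.18 (SE 0.0529, adjusted p 0.00363, or 0.0625 without KO replicate 3), so this pair went in opposite directions.

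DNAJB6 and DNAJB2, which keep aggregation-prone proteins soluble, both rose slightly. DNAJB6 was at 164, 156 and 161 CPM in KO libraries, against 139, 142 and 136 CPM in WT libraries (rise of 0.21, SE 0.0446). It shares 19.1% of its 50-base stretches with other genes, the pseudogene DNAJB6P1 above all, which itself rose by 0.65 (SE 0.25), so reads of these genes may be split between them. DNAJB2 was at 49.1, 52.4 and 54.4 CPM in KO libraries, against 47.2, 45.5 and 41.9 CPM in WT libraries (rise of 0.21, SE 0.0623). DNAJB1, the heat-inducible partner of HSPA8 and HSPA1A, went the other way, with 90.4, 89.5 and 92.2 CPM in KO libraries, against 106, 107 and 99.8 CPM in WT libraries. It fell by 0.20 (SE 0.0482, adjusted p 0.00084 in edgeR). DNAJB11, an ER-lumen co-chaperone of BiP, was at 35.5, 32.1 and 33.9 CPM in KO libraries and 38.5, 42.5 and 39.3 CPM in WT libraries, and fell by 0.24 (SE 0.0671). DNAJB11 shares 17.2% of its 50-base stretches with other genes. DNAJB4 and DNAJB5 did not pass the test. DNAJB13, at under 2 CPM, did not pass (0.71, SE 0.329), although it did without WT replicate 1 (adjusted p 0.0232) and with the filter of 1 CPM in 3 libraries (0.0483). DNAJB7 and DNAJB8 had at most 12 counts a library and were not tested.

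**Figure D3:**
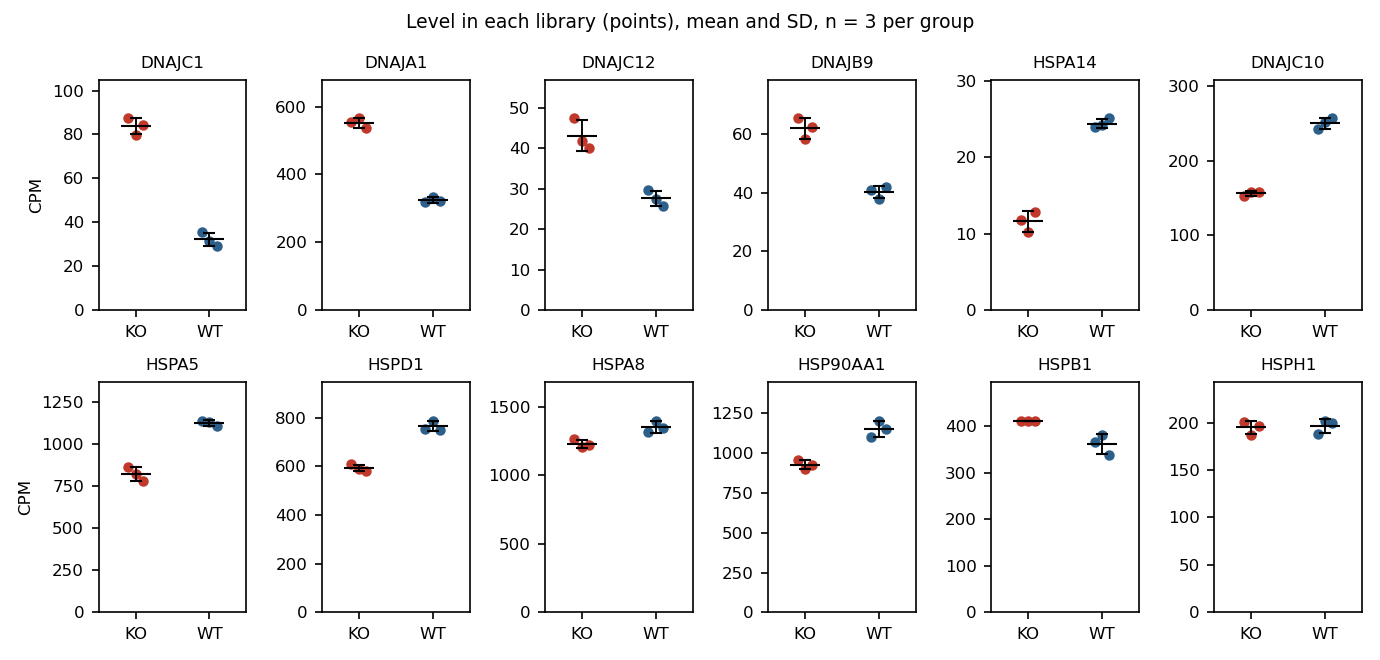
CPM in each library (points, y axis from 0) with mean and SD for 12 chaperone genes, KO left and WT right. DNAJC1, DNAJA1, DNAJC12 and DNAJB9 are higher in every KO library, HSPA14, DNAJC10, HSPA5, HSPD1, HSPA8 and HSP90AA1 are lower, HSPB1 is slightly higher, and HSPH1 overlaps.

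DNAJC genes share little beyond the J domain. Of 25 tested, 7 rose, 7 fell and 11 did not pass the test. The 7 that rose became 4 without KO replicate 1, 4 without KO replicate 2 and 3 without WT replicate 1. DNAJC1, the gene at chr10:21756537-22003769 (GRCh38, minus strand), had the largest change of any chaperone gene that passed the test. It encodes an ER-membrane protein whose J domain reaches BiP in the lumen and whose cytosolic part binds ribosomes. Its level was 87.3, 79.997 and 84.1 CPM in the KO libraries, against 35.6, 31.6 and 29.4 CPM in the WT libraries. DNAJC1 rose by 1.38 (SE 0.0637, adjusted p 7.91e-19 in edgeR), a 2.60-fold difference with every KO library far above every WT library. No exonic base of DNAJC1 overlaps another annotated gene. Its neighbours did not share the rise: MLLT10, 12907 bases away, fell by 0.36 (SE 0.0537), and COMMD3, 312205 bases away on the other side, did not pass the test (-0.08, SE 0.156). Both are the nearest tested protein-coding genes and were picked with their values in view.

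DNAJC10, an ER-lumen protein that joins a J domain to thioredoxin domains and reduces disulfides in proteins bound for degradation, had the largest fall among the J-domain genes that passed. It was at 153, 158 and 158 CPM in KO libraries, against 242, 252 and 257 CPM in WT libraries, and fell by 0.68 (SE 0.0431, adjusted p 3.86e-15 in edgeR). Set against DNAJC10, the level of DNAJC1 per kilobase was 5.00, 4.42 and 4.65 to 1 in KO libraries and 1.28, 1.10 and 1.00 to 1 in WT libraries. The size of these ratios rests on merged exon lengths of 21835 bases for DNAJC10 and 2501 for DNAJC1. In CPM, with no length, DNAJC10 was above DNAJC1 in every library, so the ratios do not show which mRNA was more abundant. Both nearest tested protein-coding genes of DNAJC10, picked with their values in view, fell as well. PDE1A, 192849 bases away, fell by 2.80 (SE 0.41) at 0.267 CPM on average in KO libraries and 1.87 CPM in WT libraries, and NCKAP1, 114651 bases away, fell by 0.20 (SE 0.042). DNAJC3, the ER-lumen protein P58IPK, also a BiP partner, was at 61.2, 58.4 and 60.4 CPM in KO libraries and 81.5, 81.1 and 85.6 CPM in WT libraries, and fell by 0.46 (SE 0.0522). DNAJC16, of the ER membrane, was at 43.3, 43.6 and 43.9 CPM in KO libraries and 54.2, 47.9 and 56.5 CPM in WT libraries, and fell by 0.28 (SE 0.063).

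DNAJC12, which binds the aromatic amino acid hydroxylases, was at 47.4, 41.8 and 40.1 CPM in KO libraries, against 29.6, 27.5 and 25.8 CPM in WT libraries. It rose by 0.64 (SE 0.0733, adjusted p 4.85e-09 in edgeR) with no overlap between the groups. Of its nearest tested protein-coding genes, picked with their values in view, SIRT1, 46503 bases away, rose by 0.33 (SE 0.0558). On the other side REEP3, as far as 4171542 bases away, fell by 0.24 (SE 0.0481). DNAJC6, the gene of auxilin, which uncoats clathrin vesicles with HSPA8 and is best known in neurons, was at 4.89, 6.25 and 6.44 CPM in KO libraries and 8.31, 8.98 and 10.6 CPM in WT libraries. DNAJC6 fell by 0.66 (SE 0.137). DNAJC4 fell by 0.46 (SE 0.124), with 8.06 ± 0.82 CPM in KO libraries and 11.1 ± 1.66 CPM in WT libraries (SD, n = 3 each), but shares 20.0% of its 50-base stretches with other genes, NUDT22 above all.

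The other DNAJC genes that rose did so by less or at low levels. The splicing-associated DNAJC8 rose by 0.20 (SE 0.0541), at 65.1 ± 2.04 CPM in KO libraries and 56.8 ± 0.243 CPM in WT libraries. DNAJC5, the cysteine string protein of secretory vesicles, was at 132, 125 and 129 CPM in KO libraries and 113, 118 and 122 CPM in WT libraries, and rose by 0.13 (SE 0.0467, adjusted p 0.0219, or 0.065 without KO replicate 1 and 0.138 without WT replicate 1). DNAJC17 (rise of 0.33, SE 0.137), DNAJC27 (rise of 0.27, SE 0.11) and DNAJC15 (rise of 0.81, SE 0.302) passed narrowly, with adjusted p of 0.0401, 0.0375 and 0.0235. Each of these 3 lost its call without at least 3 of the 6 libraries in turn, with adjusted p up to 0.242 for DNAJC17 without WT replicate 3, 0.212 for DNAJC27 without WT replicate 1 and 0.121 for DNAJC15 without KO replicate 2. DNAJC17 also lost it with DESeq2 (0.0556) and with no filter on low counts (0.0516), and DNAJC27 with DESeq2 (0.0551). Of the exonic bases of DNAJC17, 26.1% overlap genes on the opposite strand.

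DNAJC9, a chaperone of histones H3 and H4, and DNAJC14 were the remaining genes to fall. DNAJC9 was at 24.3, 24.1 and 26.0 CPM in KO libraries, against 28.6, 30.2 and 27.7 CPM in WT libraries, and fell by 0.21 (SE 0.0741, adjusted p 0.0147, or 0.0691 without KO replicate 2 and 0.0604 without WT replicate 2). DNAJC14 fell by 0.26 (SE 0.0919, adjusted p 0.0184), and the adjusted p was 0.104 without KO replicate 3, 0.0633 without WT replicate 1 and 0.0515 without WT replicate 3. Both counts are uncertain, since 28.6% of the exonic bases of DNAJC9 and 34.9% of those of DNAJC14 overlap genes on the opposite strand. For DNAJC14, 23.2% also overlap a gene on the same strand. Of their 50-base stretches, DNAJC14 shares 27.9% and DNAJC9 16.4% with other genes.

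The 11 DNAJC genes that did not pass were DNAJC2, DNAJC7, DNAJC11, DNAJC13, DNAJC18, DNAJC19, DNAJC21, DNAJC22, DNAJC24, DNAJC25 and DNAJC30. Their log2 fold changes ran from -0.12 for DNAJC21 to 0.24 for DNAJC30. For DNAJC13, an endosomal sorting protein at 105 CPM in KO libraries and 104 CPM in WT libraries on average, the change was 0.02 (SE 0.0484). DNAJC21, a ribosome biogenesis factor, passed without KO replicate 3 (adjusted p 0.0332). DNAJC5B, DNAJC5G, DNAJC28 and DNAJC25-GNG10 had at most 6 counts a library and were not tested.

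**Figure D4:**
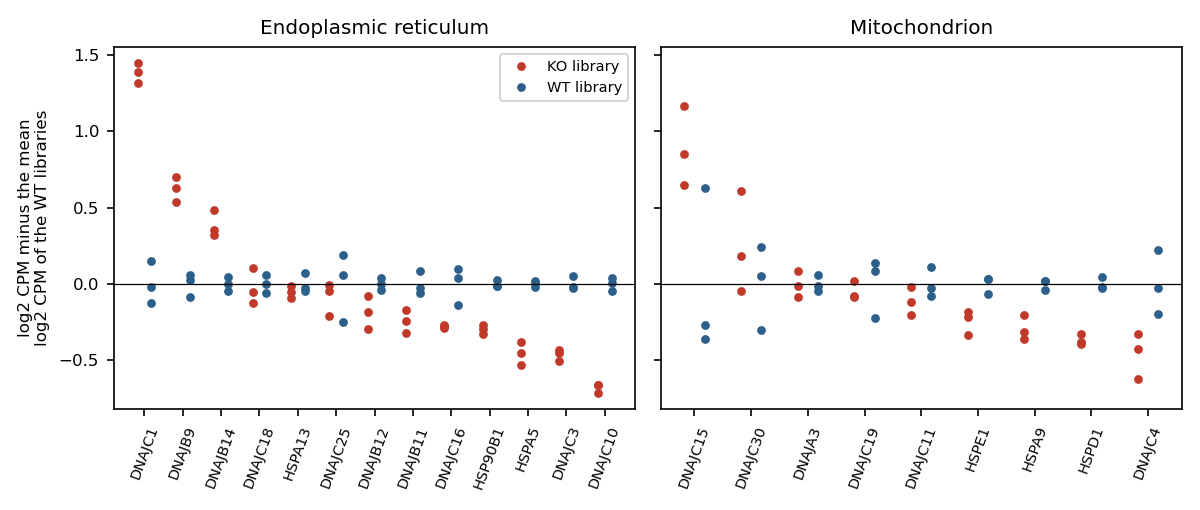
Log2 CPM of each KO and WT library minus the mean log2 CPM of the WT libraries (y axis), for the chaperone genes listed for the ER (13 genes) and the mitochondrion (9 tested genes). In the ER panel DNAJC1, DNAJB9 and DNAJB14 stand above 0 in all KO libraries, while HSP90B1, HSPA5, DNAJC3 and DNAJC10 stand below it.

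By compartment, the 13 chaperone genes listed for the ER held 3 that rose, DNAJC1, DNAJB9 and DNAJB14, and 7 that fell. The BiP co-chaperones were split: DNAJC1 and DNAJB9 rose while DNAJB11, DNAJC3 and DNAJC10 fell along with HSPA5 itself. Per kilobase, DNAJB9 stood at 0.104, 0.0974 and 0.110 of HSPA5 in KO libraries, against 0.0495, 0.0464 and 0.0520 in WT libraries. Of the 9 tested genes listed for the mitochondrion, 4 fell (HSPD1, HSPA9, DNAJC4 and HSPE1) and 1, DNAJC15, rose. Of the 5 genes listed for the spliceosome or nucleus, DNAJC8 and DNAJC17 rose, DNAJC9 fell, and DNAJC2 and DNAJC21 did not pass. The share that changed was 76.9% for the ER, 55.6% for the mitochondrion and 60% for the spliceosome or nucleus. It was 53.5% over all genes tested and 62.4% over protein-coding genes tested. The mitochondrial DNAJC19, of the import motor, and DNAJC30 did not pass the test. The share of mitochondrially encoded mRNAs, given above, was lower in the same KO libraries, and its part in the fall of HSPD1 and HSPA9 was not tested.

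Partners of these chaperones outside the named series were counted from lists drawn from general knowledge. For these and the following lists, the share changed was 53.5% over all genes tested and 62.4% over protein-coding genes tested. Among 18 HSP90 co-chaperones, 3 rose and 8 fell (61.1% changed), with a median log2 fold change of -0.09. SUGT1 lost its call as lower in several settings, such as DESeq2 (adjusted p 0.0515) and scaling by library size only (0.0994 in edgeR). The call of CDC37L1 as higher was lost without KO replicate 1 (adjusted p 0.0764 in edgeR), KO replicate 2 (0.0641) or WT replicate 2 (0.12). CHORDC1 lost its call as lower without KO replicate 2 (0.052). With library size only, PTGES3 passed as higher (0.0272). FKBP5, a prolyl isomerase of steroid receptor complexes, fell by 0.94 (SE 0.0522), with 71.1 ± 3.10 CPM in KO libraries and 136 ± 8.79 CPM in WT libraries. STIP1, which links HSP70 to HSP90, fell by 0.37 (SE 0.0438), with 210.3 ± 8.43 CPM in KO libraries and 272 ± 9.98 CPM in WT libraries. FKBP8 fell by 0.45 and FKBP4 fell by 0.28.

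Of 13 exchange factors and co-chaperones of HSP70, 3 rose and 6 fell. The call of BAG2 as lower was lost in several settings, such as scaling by library size only (adjusted p 0.0639 in edgeR) and without WT replicate 3 (0.158). With library size only, GRPEL2 passed as higher (0.0328). BAG1 and BAG3 both release ADP from HSP70 and went in opposite directions. BAG1 was at 128 ± 4.33 CPM in KO libraries and 88.1 ± 0.669 CPM in WT libraries and rose by 0.54 (SE 0.0471). BAG3 was at 72.0 ± 3.90 CPM in KO libraries and 106 ± 2.65 CPM in WT libraries and fell by 0.56 (SE 0.0511). ST13 fell by 0.42 (SE 0.0418), and HYOU1, the exchange factor of BiP, fell by 0.52 (SE 0.0504).

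The cytosolic chaperonin TRiC folds actin and tubulin, and 7 of its 8 subunit genes fell while none rose, with a median of -0.27. The call of CCT2 was lost in several settings, such as scaling by library size only (adjusted p 0.0971 in edgeR) and without KO replicate 2 (0.118). CCT3 was at 318 ± 19.2 CPM in KO libraries and 429 ± 20.0 CPM in WT libraries and fell by 0.43 (SE 0.0452). CCT7 fell by 0.39, CCT6A fell by 0.38 and CCT5 fell by 0.28. Prefoldin, which hands clients to TRiC, had 2 of 6 genes lower and 0 higher: PFDN5 fell by 0.31 and VBP1 fell by 0.27. Without KO replicate 3, PFDN2 passed as higher (adjusted p 0.0164 in edgeR). Among 11 mitochondrial chaperones and proteases, 3 rose and 4 fell, and with scaling by library size only 5 were higher. TRAP1, the mitochondrial HSP90, fell by 0.52 (SE 0.0549), whereas GRPEL1, the exchange factor of HSPA9, rose by 0.53 (SE 0.0752).

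Of the factors that control heat shock genes, HSF1 was at 86.2 ± 2.16 CPM in KO libraries and 84.4 ± 2.12 CPM in WT libraries and did not pass the test (0.03, SE 0.0494), nor did HSF2 (-0.06, SE 0.1). HSBP1, an inhibitor of HSF1, fell by 0.21 (SE 0.0508), and HSF4 fell by 0.39 (SE 0.109), a call lost without WT replicate 1 (adjusted p 0.0535 in edgeR). Among 21 listed targets of HSF1, 19 were tested, 6 rose and 11 fell. The list holds 10 tested chaperone genes already given. ZFAND2A, a regulator of the proteasome induced by arsenite, rose by 1.07 (SE 0.0776).

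Of 20 genes of the unfolded protein response of the ER, 15 fell and 4 rose, with a median of -0.44. This list holds HSPA5, HSP90B1, DNAJB9, DNAJB11, DNAJC3 and DNAJC10. PDIA4, a disulfide isomerase, fell by 1.15 (SE 0.0425), with 184 ± 6.11 CPM in KO libraries and 407 ± 11.2 CPM in WT libraries. HERPUD1, of ER-associated degradation, fell by 0.71 (SE 0.0516). ERN1, the gene of IRE1, rose by 0.81 (SE 0.0658), with 53.0 ± 2.77 CPM in KO libraries and 30.2 ± 1.80 CPM in WT libraries. Of 10 genes of the ATF4 and CHOP branch, 6 rose and 1 fell. ATF3 rose by 3.05 (SE 0.122), DDIT3, which encodes CHOP, rose by 1.25 (SE 0.116), SESN2 rose by 1.40 and PPP1R15A rose by 1.07. Immediate early genes, which respond quickly to many stimuli, had 5 of 8 tested higher and 0 lower, with a summed 354 to 370.0 CPM in KO libraries and 197 to 242 CPM in WT libraries, and their part in the chaperone results was not tested. Without WT replicate 3, 2 of them, FOSB and NR4A1, passed as lower (adjusted p 0.00941 and 0.0385 in edgeR). In that setting EGR3, under 1 CPM in every library, passed as higher (0.0128). The call of FOS as higher was lost without KO replicate 1 (0.0597). JUN rose by 1.14 (SE 0.0563).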

How the data were processed

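Total RNA from A549 cells was made into stranded libraries with an Illumina TruSeq kit, per the labels' protocols. The authors deposited raw counts: a whole number for each of 60617 Ensembl gene IDs in each library. The submitters' processing notes list edgeR 3.32.1, featureCounts 2.0.1, STAR 2.7.0d and Trim Galore 0.6.6, with the build GRCh38. What each tool did, the annotation, whether strand was used and how multi-mapping reads were handled stand in none of the sources used here. Depth ranged from 27238817 to 40675628 counts a library, so 3 counts corresponded to 0.0735 to 0.111 CPM.

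Symbols came from a symbol table and GENCODE 29, which also gave gene types, coordinates, exon lengths and overlaps. An exon length merges all annotated exons of a gene and can exceed the length of its mRNA. Levels per kilobase compared between genes depend on it. Shared sequence is the percent of 50-base stretches of a gene's longest coding transcript found in other genes' transcripts. Counts were fitted with edgeR 4.0.16 in R 4.3.3: filterByExpr, TMM factors, quasi-likelihood test with genotype as the only term, two-sided, Benjamini-Hochberg adjustment over 18505 genes, threshold 0.05. A standard error is the size of the log2 fold change over the square root of F. The fit was tested on simulated counts, with the same spread between replicates assumed for every gene. It recovered 65.7% of 1.5-fold changes, 85.1% of 2-fold changes and 98.5% of 4-fold changes. Of 171 calls, 5 were false. Changes smaller than 1.5-fold were not simulated. Libraries of a group differed by more than sampling noise (chi-square per degree of freedom 4.20 to 6.09), so all 6 were kept. Promoter windows are from RefSeq on GRCh38.p14.

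The members and gene lists were chosen with earlier results of these data known. The rule named YTHDF1, every tested gene of the HSP classes, up to 6 rises and 6 falls each among DNAJA, DNAJB and DNAJC genes averaging 5 CPM or more whose groups did not overlap, and up to 4 genes with the smallest p of each list. DNAJC9, DNAJC15, the DNAJA, DNAJB and DNAJC genes that did not pass and the untested genes are named outside it, to account for every member. Some listed genes are named outside it because their call changed with a setting or a left-out library. Alternatives were DESeq2 1.42.0, limma-voom (limma 3.58.1), RLE factors or library size alone for scaling, a replicate block, each library left out, all genes kept or only those reaching 1 CPM in 3 libraries, a fold of 1.5 in the test, and a threshold of 0.01. Protein features were not computed here. For 1 listed gene that the rule named, the values are not reported here.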

Additional observations from a re-analysis of the deposited data

How the results depend on the processing

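The 13 chaperone genes that rose and the 25 that fell became between 11 and 14, and between 24 and 25, under DESeq2, limma-voom, RLE factors, library size only and both other filters on low counts. With matches that are not protein coding kept, 15 rose and 26 fell. With a fold of at least 1.5 in the test, 2 rose and 2 fell, and over all genes 1573 rose and 1012 fell, against 5028 and 4865 in the main test. At a threshold of 0.01, 9 chaperone genes rose and 21 fell. Leaving out each library in turn gave 10 to 12 higher and 22 to 25 lower, and YTHDF1 stayed between -1.07 and -1.02. In an alternative chosen after seeing the data, only the 40 tested genes with at most 10% shared sequence and exon overlap were kept. Of these, 10 rose and 15 fell. Among the 12 HSP genes kept, 9 fell and 0 rose.

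The replicate numbers did not pair the libraries: deviations of same-numbered libraries correlated at -0.026, -0.0143 and 0.00785, and 2 of 6 libraries correlated best with their own number. With the replicate block 13 chaperone genes rose and 25 fell, as without it. Over the scalings, the median log2 fold change of all genes was at most 0.03, with library size only. The 12 untested genes had too few counts to test, and whether depth or, for HSPA1A and HSPA1B, the handling of shared reads sets those counts was not tested.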
